A study of Homo sapiens with 30 samples.

Results

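The highest dose of Bojungikgi-tang extract given to HT29 cells was compared with the next lower dose, across all genes that could be tested. HT29 is an established line of human colorectal adenocarcinoma cells, and Bojungikgi-tang is a multi-herb prescription of Korean medicine. The comparison took every library labelled with the 70% ethanol extract of Bojungikgi at 500 µg/mL (3 libraries) and at 100 µg/mL (3 libraries), which were 6 of the 30 HT29 libraries in all. Cells were harvested after 24 h, and the vehicle was 0.1% DMSO per the sample labels, although the series text gives 2%. Other libraries are used for context: Bojungikgi at 20 µg/mL (3 libraries), Sayeok extract at 500, 100 and 20 µg/mL (3 each), Banhasasim extract at the same doses (2 each), Yijung extract at the same doses (1 each, used only in the joint fit) and the vehicle alone (3). All come from 1 cell line, and nothing in the labels says whether replicates were separate cultures, so p-values measure the spread between these libraries, which may be technical. The titles give all libraries the same batch letter. Their sample codes differ: Bojungikgi and Sayeok share a code series, Banhasasim and Yijung share another, and the vehicle has its own. What the series mark is not stated, so differences in level between vehicle and extract cannot be told apart from differences between series.

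Several of the genes below are read-outs of well known sensors. The aryl hydrocarbon receptor (AhR) binds planar aromatic ligands and then switches on CYP1A1, CYP1B1 and other enzymes of foreign-compound metabolism. NRF2 is a transcription factor held down by KEAP1 until electrophiles or oxidants release it, after which it raises genes of glutathione synthesis and aldo-keto reduction. Interferon signalling drives antiviral genes such as the IFIT family through a dedicated complex of transcription factors, and SREBP2 drives cholesterol synthesis when sterols are low.

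In the step to the top dose few genes were called, and most of the called changes were small. Of 18783 genes tested, edgeR's quasi-likelihood test called 85 (0.453%), with p-values adjusted by Benjamini-Hochberg and a threshold of 0.05, 34 of them higher at 500 µg/mL (0.181%) and 51 lower (0.272%). Enzymes of the AhR and NRF2 lists were among the higher genes, led by CYP1A1 at 3.56-fold. A few antiviral, sterol and mucosal genes were among the lower ones, while transporters were called in both directions. The median size of a called change was 0.33 on the log2 scale and the smallest was 0.16. Only CYP1A1 was past 2-fold upward and only CCDC153 past 2-fold downward, while 5 higher and 4 lower genes passed 1.5-fold. Over all genes the median log2 difference was 0.001, and the quartiles were -0.092 and 0.080. The same test gave an unadjusted p under 0.05 for 1683 genes (8.96%), so a gene that was not called is not shown to be unchanged. In all 85 called genes the libraries of the 2 doses did not overlap. This largely follows from the call with 3 libraries a dose, adds no support to it, and was not counted over all genes. Levels below are scaled counts per 1000000 (CPM), and differences are log2 of 500 over 100 µg/mL. By gene type, 82 of the 85 were protein-coding. In bulk RNA a lower level can mean fewer cells of a kind or less RNA per cell, and these cannot be told apart here.

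**Figure D1:**
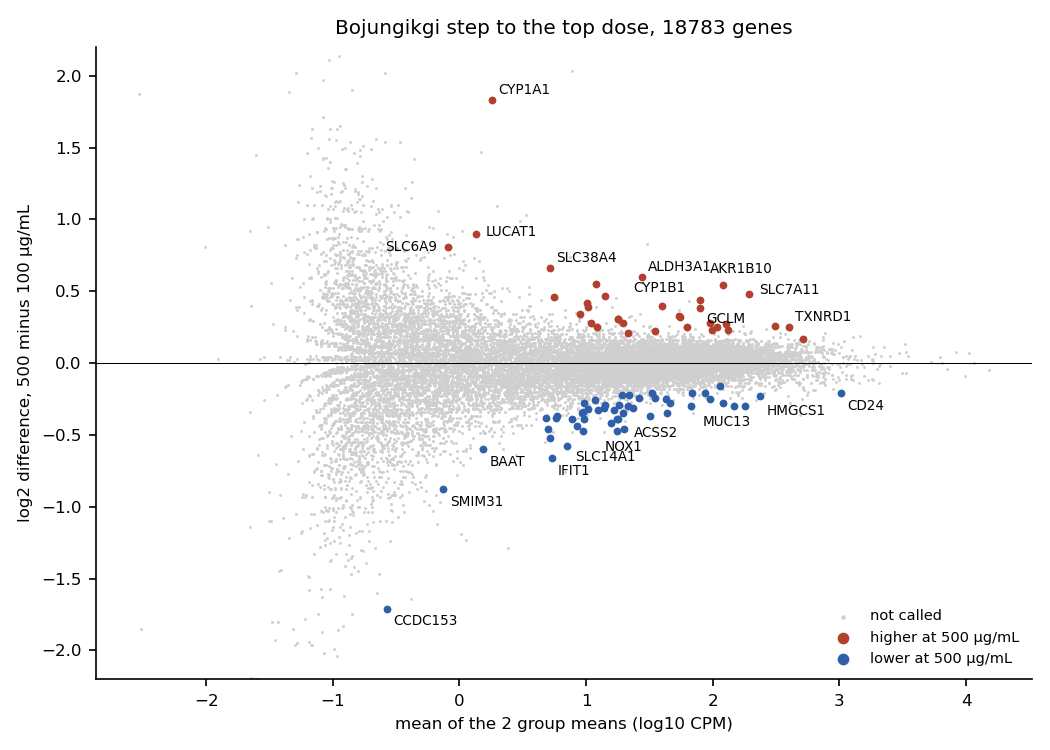
Each point is a gene, with the mean of its 500 and 100 µg/mL levels (log10 CPM) on the horizontal axis and the log2 difference on the vertical axis. The 34 genes called higher are red and the 51 called lower are blue; CYP1A1 lies at 1.83 and CCDC153 at -1.71, and 88 genes outside the axis limits or with a mean of 0 are not shown.

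The 6 libraries held 43.680 to 56.697 M counts, and the totals of the 2 doses overlapped. All 12 colon epithelial markers were detected; KRT8, an epithelial keratin, stood at 5001 to 5652 CPM, while CDX1, an intestinal transcription factor, stood at 0.970 to 1.29 CPM. Leukocyte markers summed to 1946, 1630.5 and 2025 CPM at 500 µg/mL, against 1801, 1889 and 1952 CPM at 100 µg/mL, nearly all of it LYZ, lysozyme. The leukocyte-defining PTPRC reached at most 0.0667 CPM, and CD3D, CD2, MS4A1 and FCGR3A were at 0. Fibroblast and endothelial markers summed to 4.73 to 5.08 CPM at 500 µg/mL and 4.07 to 4.63 CPM at 100 µg/mL. Of these 6 libraries 1 stood apart: replicate 2 at 500 µg/mL lay at 32.35 on the first principal component, where the other 5 lay between -4.47 and 13.35. In it, 3.78% of counts came from cytosolic ribosomal protein genes, against 5.12% and 5.31% in the other 500 µg/mL libraries and 4.88% to 5.52% at 100 µg/mL. Among the vehicle libraries, replicate 1 lay further out on that component, at -57.26, against -18.45 and -11.21 for replicates 2 and 3. It held the highest vehicle values of CYP1A1, ALDH3A1 and AKR1C1 given below.

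AhR targets gave the largest single change. Of the 9 listed genes tested, 5 rose and none fell, and the median log2 difference was 0.228, beside 0.001 over all genes. CYP1A1, a monooxygenase of polycyclic aromatic compounds on chromosome 15 (chr15:74719542-74725610, minus strand, GRCh38), had 2.54, 2.84 and 3.04 CPM at 500 µg/mL, against 0.938, 0.839 and 0.606 CPM at 100 µg/mL. Its level was low at both doses. As in every called gene that rose, every library of the higher dose stood above every library of the lower one. The log2 difference was 1.83 ± 0.18 (standard error, SE; adjusted p = 2.25e-06). Further down the dose series the vehicle libraries had 0.352 to 0.614 CPM of CYP1A1 and the 20 µg/mL libraries 0.357 to 0.502 CPM, so these groups overlapped. The overlap rested on vehicle replicate 1, at 0.614 CPM. Vehicle replicates 2 and 3 had 0.352 and 0.356 CPM, below every 20 µg/mL library.

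CYP1B1 is the related monooxygenase of oestrogens and aromatic compounds, on chromosome 2 (chr2:38066973-38109902, minus strand). It had 89.4, 93.6 and 90.5 CPM at 500 µg/mL, against 67.3, 66.2 and 68.7 CPM at 100 µg/mL. That was a log2 difference of 0.44 ± 0.04 (adjusted p = 2.25e-06). CYP1B1 was ordered along the whole dose series, with 46.7 to 52.6 CPM in vehicle libraries and 57.9 to 60.0 CPM at 20 µg/mL. ALDH3A1, an aldehyde dehydrogenase, had 34.9, 30.4 and 34.7 CPM at 500 µg/mL, against 20.8, 24.1 and 21.2 CPM at 100 µg/mL, a log2 difference of 0.60 ± 0.07 (adjusted p = 2.56e-05). Its vehicle libraries had 20.6 to 26.3 CPM, which overlapped those at 100 µg/mL and lay below all 3 libraries of the top dose.

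The remaining called AhR targets moved less. TIPARP, which ADP-ribosylates AhR and limits its activity, had 104, 105 and 109 CPM at 500 µg/mL, against 93.2, 88.8 and 88.9 CPM at 100 µg/mL (log2 difference 0.23 ± 0.05, adjusted p = 0.0456). UGT1A6, a glucuronosyltransferase of phenols, had 66.3, 69.0 and 66.9 CPM, against 56.9, 60.1 and 53.1 CPM (0.25 ± 0.06, adjusted p = 0.0369). There were 6 leave-one-out fits, each of all 30 libraries less 1 of the 6 compared. In them the TIPARP call was lost every time and the UGT1A6 call in all but 1 case. The calls of CYP1A1, CYP1B1 and ALDH3A1 held in all 6. The libraries of other groups still helped to set the spread in these fits. With the 6 compared libraries alone, only CYP1A1 of the 85 genes kept its call. AHRR, the AhR repressor and a classic target, had 4.18, 5.10 and 4.88 CPM at 500 µg/mL, against 4.40, 4.60 and 4.48 CPM at 100 µg/mL, and the groups overlapped (0.07 ± 0.10, adjusted p = 0.884). UGT1A6 shares its last exons with the other UGT1A genes, UGT1A1 among them, so the split of reads between them is uncertain.

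NRF2 targets formed the largest called group. Of 28 listed genes, 9 rose and none fell, and the median log2 difference was 0.172. An unadjusted p under 0.05 in the upward direction was found for 19 of the 28, beside 766 of all 18783 genes. Genes of cystine import and glutathione synthesis were among them. SLC7A11, the cystine importer, had 204, 249.9 and 219 CPM at 500 µg/mL, against 167, 149 and 167 CPM at 100 µg/mL (0.48 ± 0.07, adjusted p = 5.91e-04). GCLM, the modifier subunit of the rate-limiting enzyme of glutathione synthesis, had 88.9, 91.8 and 89.9 CPM, against 70.3, 66.1 and 71.3 CPM (0.38 ± 0.05, adjusted p = 6.81e-05). GCLC, its catalytic subunit, had 102, 106 and 103 CPM, against 85.9, 83.2 and 86.1 CPM (0.28 ± 0.04, adjusted p = 0.00110). In these genes, as in every called gene that rose, the 3 libraries of the top dose all stood above the 3 libraries of 100 µg/mL. In GCLM the vehicle libraries (62.7 to 68.7 CPM) and the 20 µg/mL libraries (63.9 to 66.3 CPM) overlapped.

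Aldo-keto reductases, which reduce reactive aldehydes and ketones, included the 2 largest changes of the NRF2 list. AKR1B10 had 142, 135 and 150.1 CPM at 500 µg/mL, against 91.8, 109 and 91.6 CPM at 100 µg/mL (0.54 ± 0.06, adjusted p = 9.97e-06). AKR1C2 had 14.7, 12.5 and 15.2 CPM, against 9.51, 10.6 and 8.83 CPM (0.55 ± 0.08, adjusted p = 9.42e-04). AKR1C1 had 15.7, 15.4 and 18.3 CPM, against 11.3, 13.0 and 11.4 CPM (0.47 ± 0.08, adjusted p = 0.00351). AKR1C1 and AKR1C2 are near-identical neighbours, so reads may have been shared between them and the separate values are uncertain. The vehicle was not the lowest point of these series: AKR1C1 had 14.2 to 17.0 CPM in vehicle libraries and 11.8 to 12.9 CPM at 20 µg/mL, and AKR1B10 had 109 to 118 CPM in vehicle libraries and 87.5 to 92.2 CPM at 20 µg/mL.

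The other called NRF2 targets serve haem breakdown, thioredoxin reduction and glucuronidation. HMOX1, the haem-degrading oxygenase, had 11.9, 11.1 and 12.5 CPM at 500 µg/mL, against 8.55, 8.96 and 9.64 CPM at 100 µg/mL (0.39 ± 0.06, adjusted p = 0.00180). TXNRD1, thioredoxin reductase, had 429, 431 and 446 CPM, against 373, 364 and 362 CPM (0.25 ± 0.04, adjusted p = 0.00364). UGDH, which makes the sugar donor for glucuronidation, had 111, 129.9 and 111 CPM, against 102, 95.1 and 98.2 CPM (0.25 ± 0.05, adjusted p = 0.00809). The UGDH call held in 3 of 6 leave-one-out fits, the TXNRD1 call in 5, and those of the other 7 called NRF2 targets in all 6. NQO1, a quinone reductase often used as an NRF2 marker, was not called: it had 630.4, 522 and 647 CPM at 500 µg/mL, against 521, 564 and 541 CPM at 100 µg/mL (0.15 ± 0.06, adjusted p = 0.434). Its low value at 500 µg/mL was that of replicate 2, the library that stood apart. SRXN1, sulfiredoxin, was also not called (0.05 ± 0.04, adjusted p = 0.746).

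**Figure D2:**
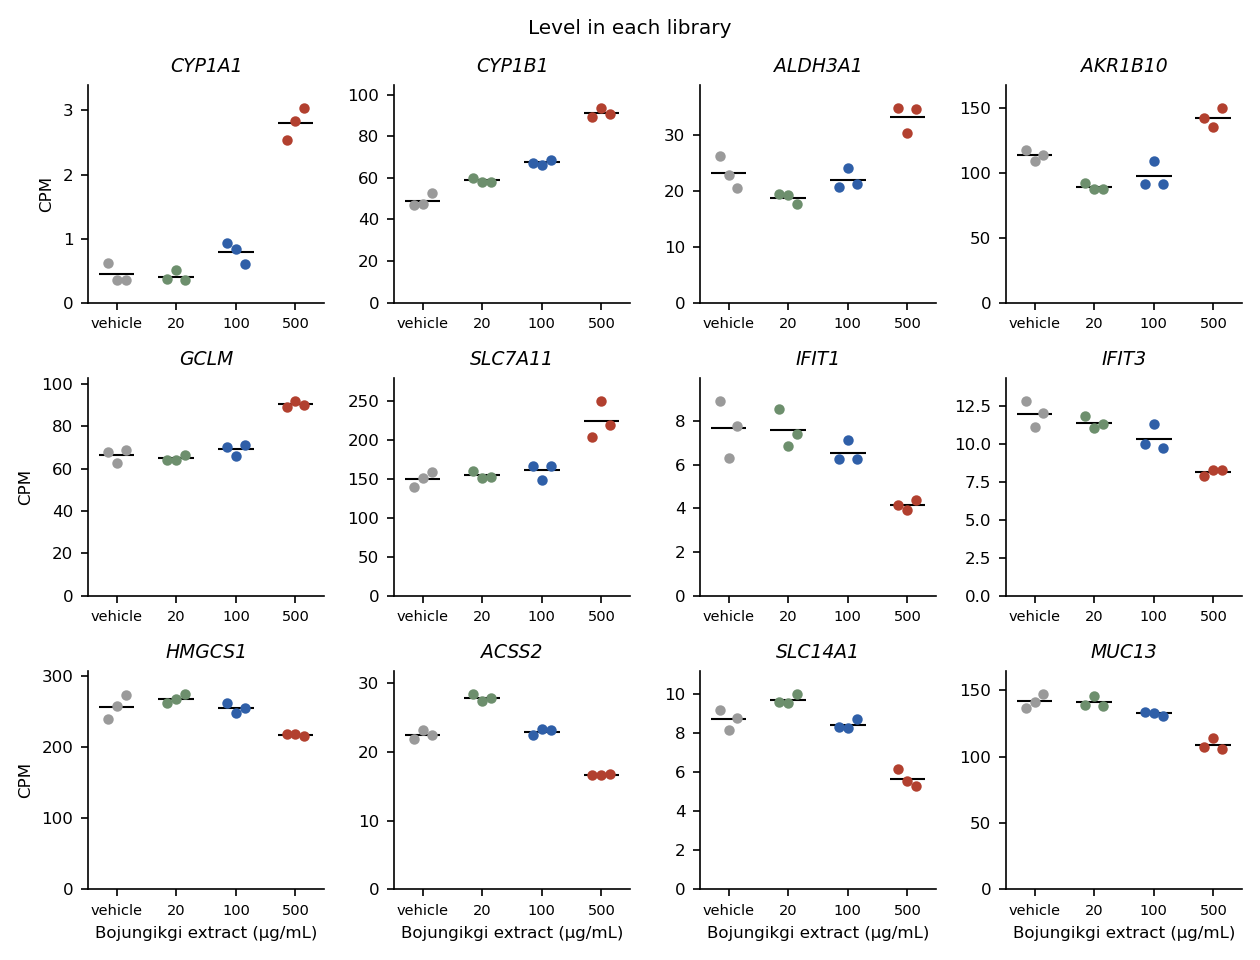
Each point is the level of a gene in 1 library (CPM, linear axis from 0), for the vehicle and Bojungikgi at 20, 100 and 500 µg/mL (3 libraries each), and the bar is the group mean. In all 12 genes, as in every called gene, the 500 µg/mL libraries do not overlap those at 100 µg/mL. CYP1B1 is ordered over the whole series, while ACSS2 is highest at 20 µg/mL.

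The promoter sequences of called NRF2 targets were searched for TGACNNNGC, the core of the antioxidant response element that NRF2 binds. The window was the 250 bases before 1 RefSeq start of each gene, on both strands, in sequence of build GRCh38.p14. Other starts of a listed gene were not searched. The lists count 1 promoter per gene, while the share over all promoters counts every promoter entry, so the units differ. Of 20 listed genes with a sequence, 5 held a match (25.0%), and of 6 called ones 2 did (33.3%); of all 35116 promoters, 10.9% did. The 2 matching promoters of called genes are shown with the match in capitals, so that the letters behind these counts can be seen; the other 4 called promoters held none. In GCLM the match was on the opposite strand, 34 to 26 bases before the start, and in TXNRD1 on the gene's strand, 99 to 91 bases before it.
GCLM, chr1:93909431-93909680, minus strand: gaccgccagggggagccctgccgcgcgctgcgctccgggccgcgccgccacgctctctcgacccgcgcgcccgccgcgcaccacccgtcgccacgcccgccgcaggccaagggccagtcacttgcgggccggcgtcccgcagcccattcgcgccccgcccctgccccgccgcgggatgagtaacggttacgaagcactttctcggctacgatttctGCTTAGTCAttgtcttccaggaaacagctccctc
TXNRD1, chr12:104215529-104215778, plus strand: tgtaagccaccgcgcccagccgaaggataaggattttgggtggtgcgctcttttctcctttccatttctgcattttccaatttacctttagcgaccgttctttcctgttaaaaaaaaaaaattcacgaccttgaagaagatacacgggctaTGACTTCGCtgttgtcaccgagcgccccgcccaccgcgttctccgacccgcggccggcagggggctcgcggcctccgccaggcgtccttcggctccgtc
For the core of the AhR response element, TNGCGTG, 2 of 7 listed promoters held a match (28.6%), against 4.52% of all promoters; among the 3 called genes with a sequence, UGT1A6 held 1 and CYP1A1 and TIPARP none in this window. A match describes these letters in this window and is not a measured binding site.

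Other genes that rose were transporters, receptors and metabolic enzymes on no common list. SLC38A4, an amino acid transporter, had 5.99, 6.64 and 6.45 CPM at 500 µg/mL, against 3.93, 3.78 and 4.33 CPM at 100 µg/mL (0.66 ± 0.11, adjusted p = 0.00180). SLC22A3, an organic cation transporter, had 10.7, 12.6 and 11.8 CPM, against 8.85, 8.39 and 9.04 CPM (0.42 ± 0.07, adjusted p = 0.00180). ADGRF1, an adhesion G-protein-coupled receptor, had 43.7, 46.9 and 44.5 CPM, against 35.3, 33.7 and 33.2 CPM (0.40 ± 0.05, adjusted p = 2.34e-04). The rule that named these genes required doses without overlap, so their separation is no further support. Each kept its call in all 6 leave-one-out fits. ITGB7, an integrin subunit, rose by 0.46 ± 0.07 (adjusted p = 0.00110) and EPHB6, an ephrin receptor, by 0.33 ± 0.06 (adjusted p = 0.00377). UGT1A1, the bilirubin glucuronosyltransferase, rose by 0.32 ± 0.06 (adjusted p = 0.00805) as the 1 called gene of 9 on the PXR and CAR list, with the same reservation on shared exons. The UGT1A1 call held in 4 of 6 leave-one-out fits and the EPHB6 call in 5.

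On the ATF4 and amino acid supply list, 2 of 27 genes rose and none fell, and the median was 0.039. They were SLC7A11, which is on the NRF2 list too, and SLC6A9, a glycine transporter. SLC6A9 had 0.966, 1.04 and 1.08 CPM at 500 µg/mL, against 0.611, 0.547 and 0.606 CPM at 100 µg/mL (0.81 ± 0.16, adjusted p = 0.0159), and its call held in 1 of 6 leave-one-out fits. ASNS, asparagine synthetase and a standard ATF4 target, had 70.0, 62.9 and 68.5 CPM, against 63.6, 64.5 and 62.7 CPM, and was not called (0.08 ± 0.04). The groups overlapped for ASNS.

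Interferon-response genes stood lower at 500 than at 100 µg/mL. Of 29 listed genes tested, 3 fell and none rose, all 29 log2 differences were below 0, and their median was -0.246, beside 0.001 over all genes. For 100 against 20 µg/mL, which shares the 100 µg/mL libraries, the list median was -0.202. IFIT1, which binds viral RNA that lacks a host cap, had 4.14, 3.91 and 4.38 CPM at 500 µg/mL, against 6.26, 7.11 and 6.24 CPM at 100 µg/mL (-0.66 ± 0.11, adjusted p = 0.00276). IFIT3, its partner, had 7.90, 8.24 and 8.25 CPM, against 9.99, 11.3 and 9.70 CPM (-0.35 ± 0.07, adjusted p = 0.0317). IFIH1, the MDA5 sensor of double-stranded RNA, had 10.6, 10.8 and 10.6 CPM, against 12.9, 13.3 and 12.3 CPM (-0.26 ± 0.06, adjusted p = 0.0486). The doses did not overlap in any of the 3 genes, as in every called gene. The IFIT1 call held in all 6 leave-one-out fits, the IFIT3 call in 1 and the IFIH1 call in none.

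Across the dose series IFIH1 differed from the IFIT genes. IFIT1 had 6.30 to 8.90 CPM in vehicle libraries and 6.85 to 8.55 CPM at 20 µg/mL, all above the top dose. IFIT3 had 11.1 to 12.8 CPM in vehicle libraries and at most 11.8 CPM at 20 µg/mL, and all 6 of these libraries lay above the top dose. IFIH1 had 10.6 to 12.5 CPM in vehicle libraries and 13.9 to 14.3 CPM at 20 µg/mL, so the top dose lay within the vehicle range. Members not called included MX1, an antiviral GTPase, with 5.48, 6.98 and 6.86 CPM at 500 µg/mL, against 9.40, 8.57 and 8.89 CPM at 100 µg/mL (-0.48 ± 0.12, adjusted p = 0.0783). OAS1, a synthetase that senses double-stranded RNA, was at -0.27 ± 0.08 (adjusted p = 0.133). ISG15, a ubiquitin-like antiviral modifier, had 19.9, 12.2 and 23.0 CPM at 500 µg/mL, against 20.7, 23.6 and 21.4 CPM at 100 µg/mL, and its low value was that of replicate 2 (-0.25 ± 0.16, adjusted p = 0.696). Without that library the list median was -0.204, with 26 of 29 members below 0.

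Among called genes off the list was HERC6. HERC6, a HECT-type ligase, had 6.29, 7.68 and 7.69 CPM at 500 µg/mL, against 9.59, 10.1 and 9.70 CPM at 100 µg/mL (-0.44 ± 0.09, adjusted p = 0.0295). DDX60, a helicase, changed by -0.37 ± 0.08 (adjusted p = 0.0461), SP110, a nuclear body protein, by -0.28 ± 0.06 (adjusted p = 0.0486) and STING1, the adaptor of cytosolic DNA sensing, by -0.29 ± 0.06 (adjusted p = 0.0266). DDX60, SP110 and STING1 were picked out after their values were seen and are no evidence of a shared direction. The HERC6 call held in 2 of 6 leave-one-out fits, those of SP110 and STING1 in 1 and that of DDX60 in 0.

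The promoters of the 3 called interferon genes each held the core of the interferon-stimulated response element, GAAA followed by any 2 bases and GAAA, searched on both strands in the 250 bases before the start. That core was in 14 of 22 listed genes with a sequence (63.6%) and in 3.02% of all 35116 promoters, counted as for the NRF2 targets. The 3 sequences are shown with every match in capitals (RefSeq, GRCh38.p14, each in its gene's direction). IFIT1 held 2 matches and IFIT3 held 2, all on the opposite strand, and IFIH1 held 3, of which 2 overlap on the opposite strand and 1 lies 21 to 12 bases before the start on its own strand.
IFIT1, chr10:89392373-89392622, plus strand: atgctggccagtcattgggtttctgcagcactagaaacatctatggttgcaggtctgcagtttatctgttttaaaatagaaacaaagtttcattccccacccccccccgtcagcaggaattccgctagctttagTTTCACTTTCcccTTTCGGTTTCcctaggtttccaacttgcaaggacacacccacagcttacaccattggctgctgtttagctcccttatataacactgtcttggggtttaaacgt
IFIT3, chr10:89327747-89327996, plus strand: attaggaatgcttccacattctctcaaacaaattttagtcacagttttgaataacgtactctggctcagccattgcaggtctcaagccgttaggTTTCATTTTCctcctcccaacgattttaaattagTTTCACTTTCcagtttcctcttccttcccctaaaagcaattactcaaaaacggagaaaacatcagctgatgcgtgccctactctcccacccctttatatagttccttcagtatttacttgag
IFIH1, chr2:162318685-162318934, minus strand: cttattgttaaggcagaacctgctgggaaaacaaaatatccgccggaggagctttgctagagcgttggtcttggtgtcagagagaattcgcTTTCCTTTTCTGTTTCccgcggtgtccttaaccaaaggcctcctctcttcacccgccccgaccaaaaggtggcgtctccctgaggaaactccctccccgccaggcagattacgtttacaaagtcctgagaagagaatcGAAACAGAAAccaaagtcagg
The capitals mark letters found by search and show no occupancy. For the sterol response element, ATCAC followed by any base and CCAC, neither of the 2 called cholesterol genes with a sequence held a match in this window, beside 0.125% of all promoters.

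Cholesterol genes shifted downward by small amounts. Of 25 listed genes, 3 fell and none rose, all 25 differences were below 0 and the median was -0.145. An unadjusted p under 0.05 in the downward direction was found for 13 of the 25, beside 917 of all 18783 genes. HMGCS1, which makes the HMG-CoA that enters the pathway, had 218, 218 and 215 CPM at 500 µg/mL, against 262, 248 and 255 CPM at 100 µg/mL (-0.23 ± 0.04, adjusted p = 0.00953). HSD17B7, a late enzyme of the pathway, had 15.9, 13.2 and 15.3 CPM, against 17.8, 19.8 and 18.3 CPM (-0.33 ± 0.06, adjusted p = 0.00788). Both genes were separated between the doses, as every called gene was, and the call of each held in 4 of 6 leave-one-out fits. INSIG1, the sterol-dependent anchor of SREBP processing, was at -0.16 ± 0.04 (adjusted p = 0.0839) and SQLE, squalene epoxidase, at -0.04 ± 0.05 (adjusted p = 0.854). Without replicate 2 of the top dose the list median was -0.103, with all 25 members still below 0.

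ACSS2, the cytosolic enzyme that turns acetate into acetyl-CoA, had the smallest adjusted p-value among the lower genes. The gene lies on chromosome 20 (chr20:34872146-34927962, plus strand). It had 16.7, 16.6 and 16.8 CPM at 500 µg/mL, against 22.4, 23.3 and 23.2 CPM at 100 µg/mL (-0.46 ± 0.05, adjusted p = 2.25e-06), and its call held in all 6 leave-one-out fits. Its series was not monotone from the vehicle, which had 21.9 to 23.2 CPM, to 20 µg/mL, which had 27.4 to 28.4 CPM. ACSS2 was also 1 of 2 genes called between 100 and 20 µg/mL (0.0106% of genes), at -0.28 ± 0.04 (adjusted p = 0.0150). The other was the antisense RNA IGFL2-AS1, whose counts cannot be assigned to a strand here. On the fatty acid synthesis list it was the only called gene of 12, and that list's median was 0.011.

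Several transport and mucosal genes also fell. SLC14A1, a urea transporter, had 6.15, 5.53 and 5.27 CPM at 500 µg/mL, against 8.31, 8.28 and 8.72 CPM at 100 µg/mL (-0.58 ± 0.09, adjusted p = 8.99e-04). SLC6A20, a proline transporter of the brush border, had 7.94, 8.53 and 7.39 CPM, against 10.7, 10.5 and 11.7 CPM (-0.47 ± 0.06, adjusted p = 2.84e-04). NOX1, the NADPH oxidase of colon epithelium, had 14.4, 14.4 and 15.7 CPM, against 18.4, 21.7 and 21.3 CPM (-0.47 ± 0.07, adjusted p = 9.49e-04). All 3 kept their calls in every leave-one-out fit. SLC14A1 and NOX1 were the 2 called genes of 14 on the ion, urea and osmolyte list (median 0.002), and SLC6A20 the 1 called gene of 19 on the enterocyte list (median -0.083). The enterocyte list went both ways, with an unadjusted p under 0.05 for 5 members upward and 4 downward.

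On the goblet cell and mucin list 2 of 20 genes fell, none rose and the median was -0.074, with 12 members below 0 and 8 above. MUC13, a membrane mucin, had 107, 114 and 106 CPM at 500 µg/mL, against 134, 133 and 131 CPM at 100 µg/mL (-0.28 ± 0.04, adjusted p = 0.00110). AGR2, a mucin-folding enzyme, had 176, 134 and 171 CPM, against 189, 202 and 200.4 CPM (-0.30 ± 0.07, adjusted p = 0.0488), and its lowest value was that of replicate 2. The MUC13 call held in all 6 leave-one-out fits and the AGR2 call in 2. SESN1, a stress-inducible regulator of mTORC1, was the only called gene of 20 on the p53 list (-0.24 ± 0.05, adjusted p = 0.0331), and its call held in 1 of 6 leave-one-out fits.

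Further lower genes had no common list. ADH6, an alcohol dehydrogenase, changed by -0.52 ± 0.09 (adjusted p = 0.00351), LINC00261, a long non-coding RNA, by -0.42 ± 0.06 (adjusted p = 9.49e-04) and ATP6V1B1, a proton pump subunit, by -0.39 ± 0.07 (adjusted p = 0.00299). STEAP4, a metalloreductase, changed by -0.39 ± 0.07 (adjusted p = 0.00434), and NR4A1, an immediate-early nuclear receptor, by -0.39 ± 0.08 (adjusted p = 0.0232). DPH6, an enzyme of diphthamide synthesis, changed by -0.39 ± 0.08 (adjusted p = 0.0162) and MYO7B, a brush-border myosin, by -0.38 ± 0.09 (adjusted p = 0.0496). LINC03040 is an annotated locus of no stated role, and it changed by -0.46 ± 0.10 (adjusted p = 0.0362). CCDC153 had the largest fall on the log2 scale (-1.71 ± 0.37, adjusted p = 0.0314) but at a very low level: 0.118, 0.0677 and 0.177 CPM at 500 µg/mL, where 3 counts are worth 0.0529 to 0.0687 CPM, against 0.371, 0.584 and 0.276 CPM at 100 µg/mL. In the 6 leave-one-out fits the CCDC153 call held in 2, those of NR4A1 and DPH6 in 3 each and those of MYO7B and LINC03040 in 1 each, while ADH6, LINC00261, ATP6V1B1 and STEAP4 kept theirs in all 6.

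**Figure D3:**
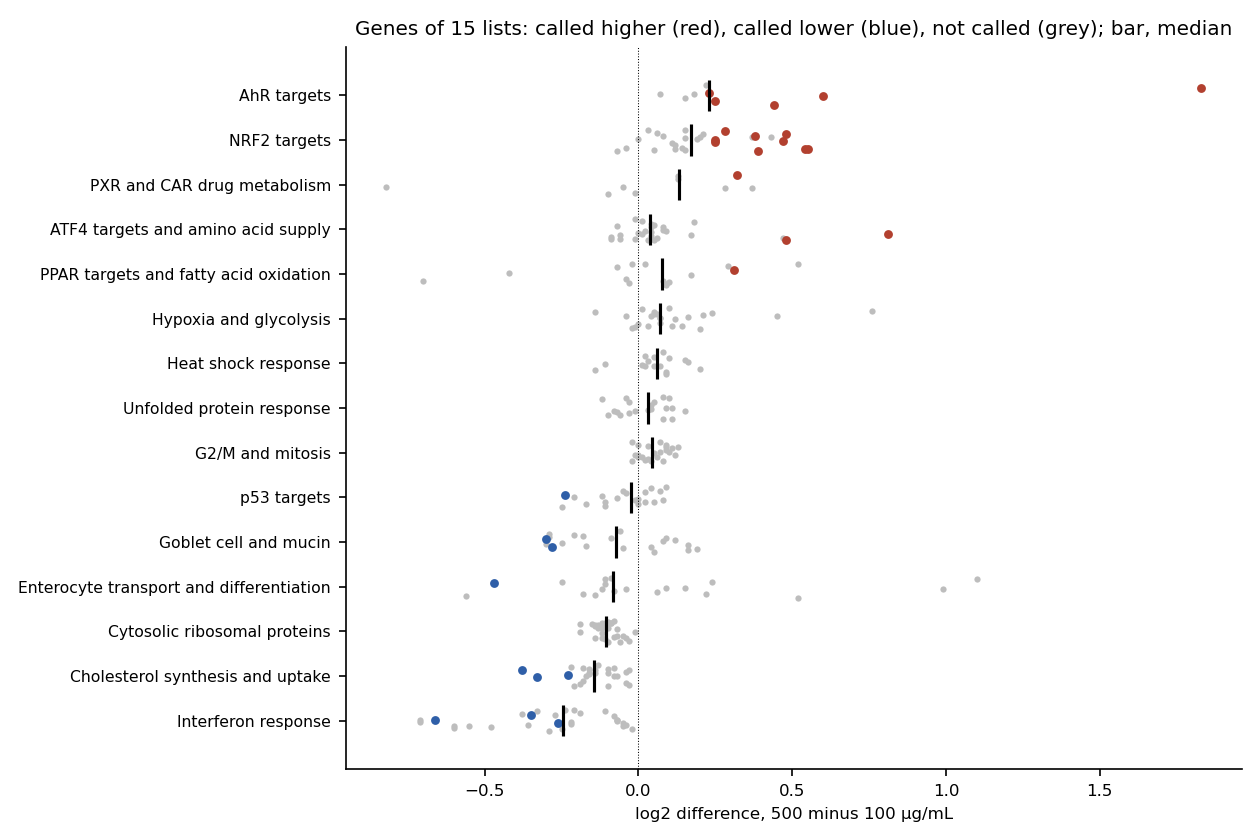
Each point is a member of 1 of 15 gene lists, placed by its log2 difference between 500 and 100 µg/mL; red and blue points passed the test and the black bar is the list's median. The AhR and NRF2 medians lie at 0.228 and 0.172, the cholesterol and interferon medians at -0.145 and -0.246, and the medians in between lie closer to 0.

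In 22 of the 34 lists no member was called. The cell division lists, G2/M with 23 genes and G1/S with 24, had medians of 0.045 and 0.047. Heat shock genes (16) had a median of 0.060, unfolded protein response genes (20) 0.032, hypoxia and glycolysis genes (24) 0.069 and proteasome subunits (26) 0.006. Medians of the other signalling lists were 0.038 for NF-kB (17 genes), 0.019 for MAPK (22), -0.007 for Wnt (14), -0.019 for YAP (14), 0.113 for LXR (7) and 0.010 for glucose sensing (7). A list without a call could still hold members with an unadjusted p under 0.05. Upward there were 9 of 24 on the hypoxia and glycolysis list and 4 of 7 on the LXR list, and downward 0 on each. Tight junction genes (19) had a median of -0.021, autophagy and lysosome genes (23) -0.020, and the list of metallothioneins and zinc export (6) -0.265. That list held 5 metallothioneins between -0.94 and -0.20 and the zinc exporter SLC30A1 at 0.02, and without replicate 2 at 500 µg/mL its median was -0.155. Mitochondrially encoded mRNAs (13) had a median of 0.004 and the 2 mitochondrial ribosomal RNAs 0.134. All 30 cytosolic ribosomal protein genes lay below 0 with a median of -0.106, and nuclear oxidative phosphorylation genes (28) had a median of -0.079. Without that same replicate 2 the last 2 medians were 0.036 and 0.031, so the direction of both lists rested on that library. Over the marker lists the medians were -0.039 for colon epithelium, 0.174 for fibroblasts and endothelium (4 genes) and -0.001 for leukocytes (5 genes).

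The call count depended on which libraries estimated the spread. All 30 libraries entered the fit, and its common dispersion was 0.00407; the 3 Yijung libraries, each alone in its group, add nothing to that estimate. With the 6 compared libraries alone, 1 gene was called, CYP1A1, and with the 9 Bojungikgi libraries 19 were. When replicate 2 at 500 µg/mL was dropped from the 6, the remaining 5 libraries gave 60 calls, 41 of them among the 85. Leaving 1 library out of the full fit gave 53, 59 and 66 calls without replicates 1, 2 and 3 at 500 µg/mL, and 51, 46 and 38 without replicates 1, 2 and 3 at 100 µg/mL. Across those 6 fits 29 of the 85 genes were called every time. Over all 16 alternative settings, 1 of which called 0 genes, 0 of the 85 kept the call throughout. None of the 85 changed direction in any setting. Since their doses did not overlap, a change of direction was very unlikely from the start, so this is no evidence of stability.

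**Figure D4:**
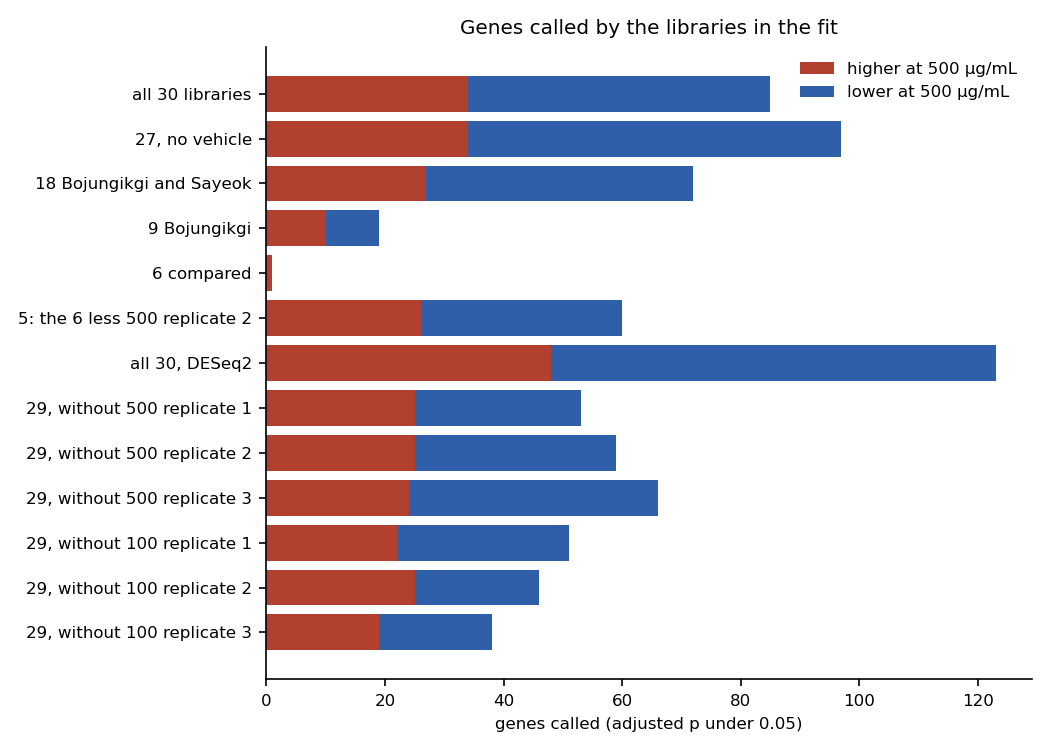
Bars give the number of genes called for 500 against 100 µg/mL, higher (red) and lower (blue), by which libraries entered the fit. The full fit called 85, the 6 compared libraries 1, and the same libraries less replicate 2 at 500 µg/mL 60.

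The step from 100 to 500 µg/mL was also taken with 2 other extracts, and those steps share no library with the Bojungikgi step. All were tested in the same fit with a shared estimate of the spread, so their calls are not fully independent. The shares of all genes given below do not allow for this. Bojungikgi had the fewest calls, 85, against 325 for Sayeok (1.73% of genes) and 781 for Banhasasim (4.16%), the last with 2 libraries a dose. Of the 34 genes that rose with Bojungikgi, 24 also rose with Sayeok, which is 70.6% of the Bojungikgi genes and 18.6% of the 129 Sayeok genes. Likewise 24 rose with Banhasasim, 6.08% of its 395, and the share of all genes that rose was 0.687% for Sayeok and 2.10% for Banhasasim. Of the 51 that fell, 24 fell with Sayeok (47.1% of 51 and 12.2% of 196) and 22 with Banhasasim (43.1% of 51 and 5.70% of 386), where 1.04% and 2.06% of all genes fell. In all, 36 of the 85 genes were called in the same direction in both other extracts and 27 in neither. Of those 27, 5 were called in a test of the difference between steps, so most are not shown to be particular to Bojungikgi. All 34 higher genes and 49 of the 51 lower ones had the same sign with Sayeok, and 33 and 46 had it with Banhasasim. None of these counts was made over all genes. NR4A1 was the 1 gene called in opposite directions, at -0.39 ± 0.08 with Bojungikgi and 0.53 ± 0.10 with Banhasasim (adjusted p = 8.30e-04).

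The NRF2 list was called in 9 genes with Bojungikgi, against 20 with Sayeok and 19 with Banhasasim. Its medians were 0.172, 0.337 and 0.368 in the same order. AhR targets were called in 5, 5 and 8 genes, with medians of 0.228, 0.208 and 0.478. On the interferon list 3 genes fell with Bojungikgi, 0 with Sayeok and 9 with Banhasasim, with medians of -0.246, -0.101 and -0.272. The cholesterol list gave 3, 1 and 4 genes that fell, with medians of -0.145, -0.041 and -0.146. On the ATF4 list 2 genes rose with Bojungikgi, 8 with Sayeok and 25 with Banhasasim, and the medians were 0.039, 0.204 and 0.889. These counts describe each extract on its own, and the differences were tested gene by gene.

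**Figure D5:**
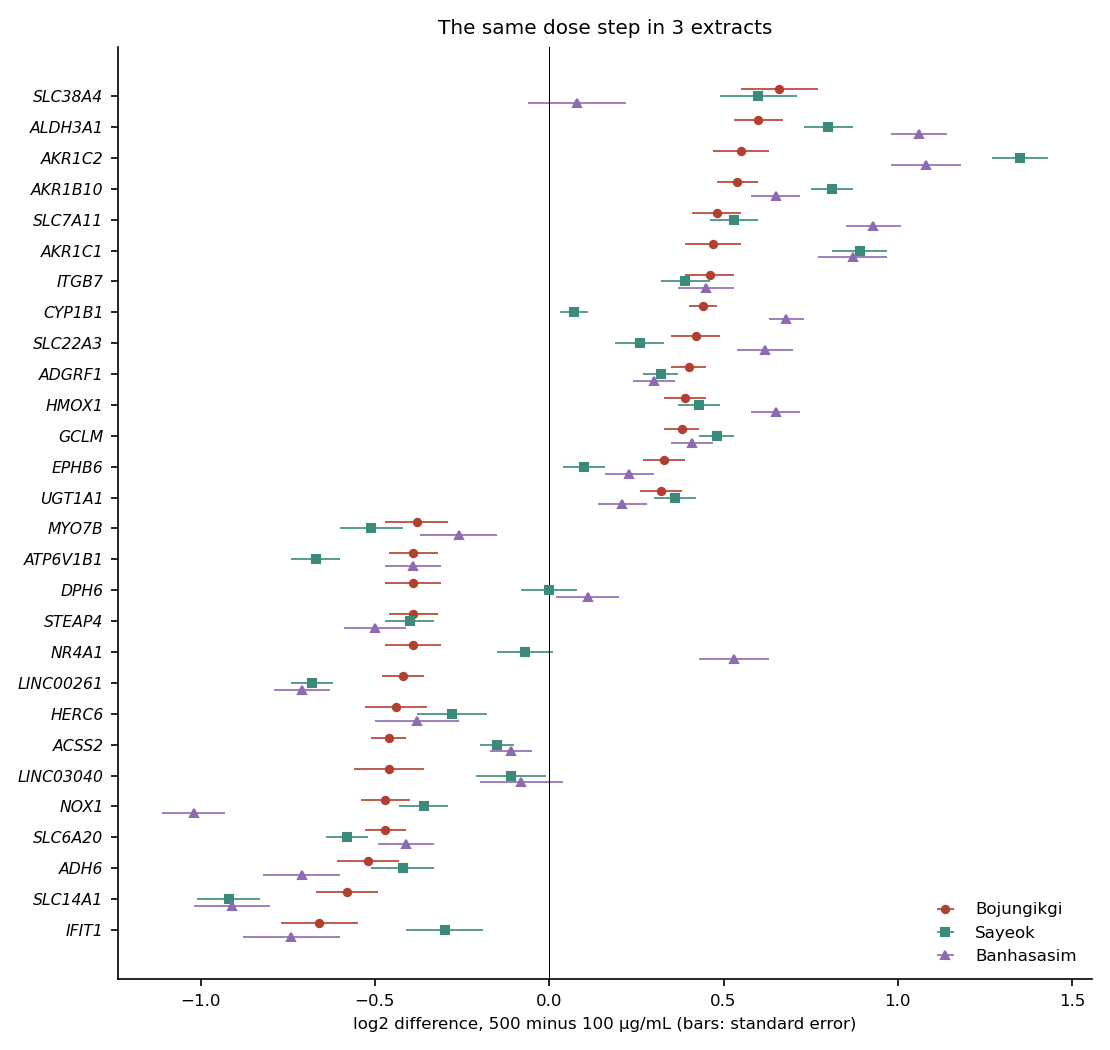
The log2 difference between 500 and 100 µg/mL, with its standard error, is drawn for called genes with the largest Bojungikgi changes in each direction, in Bojungikgi, Sayeok and Banhasasim. AKR1C2 stands at 0.55, 1.35 and 1.08, CYP1B1 at 0.44, 0.07 and 0.68, and NR4A1 is the gene whose Banhasasim point lies on the opposite side of 0 with a call.

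Against Sayeok, the test of the difference between the steps called 3 genes (0.0160%), 1 of them more positive with Bojungikgi (0.00532%) and 2 more negative (0.0106%). CYP1B1 changed more with Bojungikgi, at 0.44 ± 0.04, than with Sayeok, at 0.07 ± 0.04 (difference 0.37 ± 0.06, adjusted p = 0.0263). AKR1C2 changed less, at 0.55 ± 0.08 against 1.35 ± 0.08 (difference -0.79 ± 0.12, adjusted p = 0.00769). In its neighbour AKR1C1, with which it may share reads, the difference was not called (-0.41 ± 0.11, adjusted p = 0.461). TRIM31, a ubiquitin ligase of the gut epithelium, was not called with Bojungikgi, at 0.05 ± 0.04, and rose by 0.40 ± 0.04 with Sayeok (difference -0.36 ± 0.06, adjusted p = 0.0263). CYP1A1 stood at 1.83 ± 0.18 with Bojungikgi and 0.95 ± 0.22 with Sayeok, a difference that was not called (0.89 ± 0.29, adjusted p = 0.598). Leaving out any 1 of the 12 libraries gave 0 to 2 genes, 0 without replicate 2 of Bojungikgi or replicate 3 of Sayeok at 100 µg/mL. The CYP1B1 difference lost its call each time, with adjusted p between 0.0549 and 0.268, and DESeq2 called 9 genes in all.

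Against Banhasasim the difference was called in 177 genes (0.942%), 56 of them more positive (0.298%) and 121 more negative (0.644%) with Bojungikgi. Of the 85 genes of the Bojungikgi step, 11 were among them. ACSS2 fell by more with Bojungikgi, at -0.46 ± 0.05, than with Banhasasim, at -0.11 ± 0.06 (difference -0.35 ± 0.07, adjusted p = 0.0107). NOX1 was at -0.47 ± 0.07 and -1.02 ± 0.09 (difference 0.56 ± 0.12, adjusted p = 0.0118), and SLC6A9 at 0.81 ± 0.16 and 2.74 ± 0.16 (difference -1.93 ± 0.23, adjusted p = 9.38e-06). Among the largest differences, DDIT4, a stress-induced inhibitor of mTORC1, was at 0.04 ± 0.08 with Bojungikgi and 1.91 ± 0.09 with Banhasasim (difference -1.87 ± 0.12, adjusted p = 7.90e-11). ASNS was at 0.08 ± 0.04 and 1.69 ± 0.05 (difference -1.61 ± 0.07, adjusted p = 1.15e-14), and the mitochondrial ribosomal RNA MT-RNR1 at 0.19 ± 0.12 and 3.17 ± 0.16 (difference -2.98 ± 0.19, adjusted p = 4.80e-09). Leaving out 1 library gave 81 to 270 genes: 111 and 81 without Banhasasim replicates 2 and 3 at 100 µg/mL, and 91 and 270 without replicates 2 and 3 at 500 µg/mL.

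Within Bojungikgi, the step from 20 to 100 µg/mL is of the same dose ratio and gave 2 calls, against 85 for the step from 100 to 500 µg/mL. The 2 steps share the 100 µg/mL libraries, so only the difference between them was tested. No gene passed that test in edgeR's quasi-likelihood fit, where 563 genes (3.00%) had an unadjusted p under 0.05, and DESeq2 called 1. For CYP1A1 the upper step exceeded the lower one by 0.92 (unadjusted p = 0.0250, adjusted p 1.000), and for AKR1B10 by 0.41 (unadjusted p = 5.49e-04, adjusted p 1.000). With no filter on low counts 74 genes were called.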

How the data were processed

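RNA was sequenced from HT29 cells, per the labels' protocols from 1 µg of RNA (RNA integrity number above 7) with a directional kit and paired reads of 100 bp. The authors deposited expected counts per gene, which need not be whole; per the submitters' processing notes the tools were RSEM 1.3.3, STAR 2.7.3a, FastQC 0.11.9 and Trim Galore 0.6.5, with GRCh38. How strand was set in counting, and which annotation release was used, is not given in the sources used here. Of 270 columns in the table, 240 matched no sample here and were not used.

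Expected counts were rounded (25.48% of values above 0 were not whole). Genes were kept by edgeR's filterByExpr (minimum count 10), scaled by TMM and fitted with edgeR's quasi-likelihood test (edgeR 4.0.16, limma 3.58.1, R 4.3.3) over all 30 libraries, with a mean for each of 13 groups, so that all groups share 1 estimate of the spread, to which the groups of 1 library (Yijung) add nothing. Adjusted p-values are Benjamini-Hochberg over all 18783 genes; a gene was called under 0.05. Standard errors were taken from the log2 difference and its F. CPM are TMM-scaled counts per 1000000. DESeq2 1.42.0 was an alternative. Scripts were tested on simulated data.

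Some genes that the rule selects are not reported here. Named genes were the 15 higher and 15 lower called genes with the largest differences, at least 5 CPM in 1 dose and no overlap, up to 5 members of each list with the smallest p, and 5 in each direction for each difference between extracts; others were picked after their values were seen. AHRR, NQO1, SRXN1, SQLE, INSIG1, MX1, OAS1 and ISG15 were added as well known list members with their values known. The genes, lists and tests were chosen with earlier results of these data known. No block entered the main test, since nothing in the labels says that a replicate number marks a shared culture or day. Deviations of same-numbered replicates correlated at -0.0793, -0.138 and 0.0373 between the 2 compared doses. Between Bojungikgi at 100 and 20 µg/mL they correlated at 0.0716, 0.0512 and -0.00674. With 3 libraries a dose this is a weak check. Gene coordinates come from GENCODE 29.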

Additional observations from a re-analysis of the deposited data

Results flagged for a closer look

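Between the extracts, the step from 100 to 500 µg/mL differed by a test of the difference itself in the genes below, given as the Bojungikgi step minus the other. Against Sayeok the log2 difference was 0.37 for CYP1B1, -0.79 for AKR1C2, which may share reads with its neighbour AKR1C1, and -0.36 for TRIM31. Against Banhasasim it was 1.14 for MT-ND4 and 0.88 for MT-CO1, 2 mitochondrial mRNAs, and 1.06 for MTCO1P12, a nuclear copy of MT-CO1 that may share its reads. It was 0.82 for NR0B2, a nuclear receptor, and 0.77 for SLC5A3, an inositol transporter. It was -2.98 for MT-RNR1 and -2.49 for MT-RNR2, the mitochondrial ribosomal RNAs. It was -1.87 for DDIT4, -1.61 for ASNS and -1.26 for PCK2, an amino acid response gene. The Bojungikgi step itself was not called in any of these genes except CYP1B1 and AKR1C2.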

How the results depend on the processing

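None of the 85 called genes changed direction in 16 alternative settings, which doses without overlap made very likely from the start. The number called moved. With no filter on low counts 251 genes were called, with the 6 compared libraries alone 1 and with the 9 Bojungikgi libraries 19; leaving out 1 library gave 38 to 66. DESeq2 called 123. With the replicate number as a replicate block 92 genes were called in all libraries, and 0 in the 6 libraries alone, where the numbers did not pair (correlations of same-numbered deviations -0.0793, -0.138 and 0.0373). List members called were 30 in the reported fit, 47 with no filter, 1 with the 6 libraries, 0 with the block added, 13 with the 9 Bojungikgi libraries, and 20 to 25 without 1 library. The difference from Sayeok was called in 9 genes by DESeq2, 296 with no filter, 0 with the compared libraries alone and 0 to 2 without 1 library. The difference from Banhasasim was called in 647 with no filter, 52 with the compared libraries alone and 81 to 270 without 1 library, and the block gave 173. The difference between the 2 Bojungikgi steps was called in 1 gene by DESeq2 and 74 with no filter. Without 1 library the ribosomal protein median ranged from -0.204 to 0.036 and that of nuclear oxidative phosphorylation from -0.163 to 0.031, above 0 only without replicate 2 at 500 µg/mL, and they were 0.038 and 0.032 when the fit held only the other 5 libraries. The 9-library, 18-library and 5-library fits and the fit without the vehicle were chosen after seeing the data, and the cause of each change was not tested. Depth limits genes near 3 counts, which are worth 0.0529 to 0.0687 CPM in the 6 libraries.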
